A study of Mus musculus with 6 samples.

Results

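The genes described here encode connexins of epidermal gap junctions. They are Gja1 (Cx43), Gjb2 (Cx26), Gjb6 (Cx30), Gjb5 and Gjc1 (Cx45), a list of 5 symbols matched to the Ensembl identifiers of the counts. The list was chosen by name, with earlier results of these data known. All 5 were found among 41214 identifiers, and all 5 passed the filter on low counts that left 13704 genes to test. The mRNA came from epidermis of trypsin-treated skin of C57BL/6 mice, at postnatal day 4. There were 3 libraries from wild type (wt) and 3 from animals labelled ARPC4 ko. Arpc4 encodes a subunit of the Arp2/3 complex, the nucleator of branched actin, and the series title places the knockout in the epidermis and speaks of a psoriasis-like disease. The labels name no Cre driver, do not say which part of Arpc4 was deleted, and do not say whether the libraries came from separate animals or litters. Replicates 1 and 2 of each group carry a date in their titles and replicate 3 does not.

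Connexins assemble into hemichannels in the plasma membrane, and hemichannels of neighbouring cells dock to form gap junction channels that pass ions and small messengers such as inositol phosphates. Keratinocytes make several connexins at once, in amounts that differ between the layers of the epidermis, and channels built from different connexins pass different molecules. In human skin GJB2 and GJB6 are low in healthy interfollicular epidermis and raised in psoriatic plaques and at wound edges. Mutations in GJB2 and GJB6 cause deafness and skin disorders of keratinisation.

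The counts assigned to genes ranged from 17561294 to 22659511 per library. Levels are given as counts per 1000000 counts (CPM) after TMM scaling, which corrects library totals for differences in composition. Arpc4 itself lay between 72.55 and 82.54 CPM in wt and between 64.46 and 67.55 CPM in ko (log2 fold change -0.21, adjusted p = 0.469, edgeR quasi-likelihood test), and since the labels do not name the deleted part, this level does not check the deletion. Xist was high in wt replicate 3 and in ko replicates 1 and 3, and the Y-linked Ddx3y in the other 3 libraries, so the sexes were not balanced between the groups. The median log2 fold change of all tested genes was 0.02.

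Ko was compared with wt to ask which connexin transcripts differ between the 2 genotypes. Gjb2 mRNA was 2.41-fold and Gjb6 mRNA 2.02-fold higher on average in ko, and for both genes the 3 ko libraries stood above the 3 wt libraries. Gjb5 was 1.47-fold lower on average in ko, Gja1 1.31-fold higher and Gjc1 1.47-fold higher, with overlapping groups in all 3. With 0 of 5, no member passed the edgeR quasi-likelihood test at a Benjamini-Hochberg adjusted p under 0.05, a threshold that 0.219% of all tested genes passed. At an unadjusted p under 0.05, 2 of the 5 stood higher and 0 lower, against 7.98% and 5.25% of all tested genes. In 2 of the 5 the ko libraries lay above the wt libraries without overlap and in 0 below, against 11.3% and 8.03% of all tested genes. The median log2 fold change of the 5 was 0.52. Bulk libraries cannot tell more cells of a type from more RNA per cell, and this holds for every value here.

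Promoter sequences of the members are shown first, because the chromosome 14 neighbours Gjb2 and Gjb6 both stood higher in every ko library, while the groups overlapped for Gjb5 on chromosome 4 and Gja1 on chromosome 10. Each is the 250 bases before the RefSeq start of the gene on GRCm38.p6 (mm10), written 5′ to 3′ on the gene's own strand. Capitals mark matches, on either strand, to 4 sets of letters: the AP-1 site TGANTCA, the core of the antioxidant response element TGACNNNGC (the type of site bound by Nrf2, which the series title names), the GC box GGGCGG and the TATA box TATAAA. Gjc1 is named only. A match describes letters and is not evidence of a bound factor.
Gjb2, chr14:57104703-57104952, minus strand: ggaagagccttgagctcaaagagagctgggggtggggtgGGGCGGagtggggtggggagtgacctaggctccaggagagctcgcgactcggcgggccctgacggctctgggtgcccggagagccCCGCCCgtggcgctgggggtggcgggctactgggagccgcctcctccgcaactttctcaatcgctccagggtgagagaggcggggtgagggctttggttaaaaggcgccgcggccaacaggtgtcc
Gjb6, chr14:57133612-57133861, minus strand: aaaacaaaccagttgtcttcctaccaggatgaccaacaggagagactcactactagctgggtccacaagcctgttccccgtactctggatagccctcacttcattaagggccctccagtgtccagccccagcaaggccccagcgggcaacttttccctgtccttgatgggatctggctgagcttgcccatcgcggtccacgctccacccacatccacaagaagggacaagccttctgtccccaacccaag
Gjb5, chr4:127358165-127358414, minus strand: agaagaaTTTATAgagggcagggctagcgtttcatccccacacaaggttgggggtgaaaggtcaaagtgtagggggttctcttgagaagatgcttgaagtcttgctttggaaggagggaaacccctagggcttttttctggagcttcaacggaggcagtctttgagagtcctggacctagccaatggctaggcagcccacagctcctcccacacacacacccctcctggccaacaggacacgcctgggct
Gja1, chr10:56377050-56377299, plus strand: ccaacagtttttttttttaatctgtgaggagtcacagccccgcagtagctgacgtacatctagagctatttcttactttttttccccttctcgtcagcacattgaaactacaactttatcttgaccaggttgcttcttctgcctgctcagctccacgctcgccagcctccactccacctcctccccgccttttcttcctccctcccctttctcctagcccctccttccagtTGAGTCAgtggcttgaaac

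The Gjb2 window was 69.2% G and C, against a median of 52.4% over 32851 promoter windows of this length, and held 2 GC boxes that began 211 and 126 bases before the start. A GC box was present in 32.7% of all windows. The Gjb6 window, at 56.8% G and C, held none of the 4 sets of letters. In the Gja1 window (50% G and C) an AP-1 match, TGAGTCA, began 19 bases before the start, and 6.75% of all windows held such a match. The Gjb5 window (54.4% G and C) held the TATA letters on the opposite strand only, 243 bases before the start, and 12.4% of all windows held them on either strand. None of the 4 windows held the antioxidant response core, which 10.2% of all windows did.

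Gjb2 (ENSMUSG00000046352) lies on chromosome 14 at 57098600 to 57104702 of mm10, minus strand, and its exons, like those of the other members, overlap no other annotated gene. It encodes the beta connexin Cx26, whose forced expression in mouse epidermis is known to disturb barrier repair. In wt replicates 1 to 3 its level was 225.0, 280.6 and 202.1 CPM, and in ko replicates 1 to 3 it was 380.0, 692.7 and 636.2 CPM. The lowest ko library, replicate 1, stood above the highest wt library, replicate 2. The means were 235.9 ± 40.4 CPM in wt and 569.6 ± 166.7 CPM in ko (SD, n = 3), and the log2 fold change was 1.27 (SE 0.26, 95% interval 0.66 to 1.89). By p it ranked 247 among all tested genes in the edgeR quasi-likelihood test, with an adjusted p of 0.105. DESeq2, which called 4.21% of the genes it tested, gave Gjb2 a log2 fold change of 1.25 and an adjusted p of 0.0013, and edgeR with the presence of a date in the title as a covariate, which called 5.17%, gave 1.27 and 0.0459. Over all analyses run the adjusted p of Gjb2 ranged from 0.0013 to 0.429, and within the 4 dated libraries alone the log2 fold change was 1.06 (adjusted p = 0.178, edgeR).

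Gjb6 (ENSMUSG00000040055), the next gene of the cluster, lies on chromosome 14 at 57123303 to 57133611, minus strand. Its product Cx30 can share channels with Cx26, and in the inner ear the 2 proteins form the main gap junction network. The wt libraries held 31.65, 46.32 and 30.2 CPM of Gjb6, and the ko libraries 54.23, 108.6 and 56.07 CPM. All 3 ko values exceeded all 3 wt values, and ko replicate 2 stood well above the other two. From 36.1 ± 8.92 CPM in wt to 73.0 ± 30.9 CPM in ko (SD, n = 3), the log2 fold change was 1.02 (SE 0.32, 95% interval 0.26 to 1.77), with an adjusted p of 0.242 (edgeR quasi-likelihood). Without ko replicate 2 the log2 fold change of Gjb6 was 0.61 (adjusted p = 0.473), and within the dated libraries it was 1.03 (adjusted p = 0.321). DESeq2 gave 0.99 with an adjusted p of 0.0898, and over these and the other analyses without a replicate block the adjusted p ranged from 0.0898 to 0.599. EdgeR with a replicate block gave an adjusted p of 0.026, though whether the replicate numbers pair the samples is not known.

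**Figure D1:**
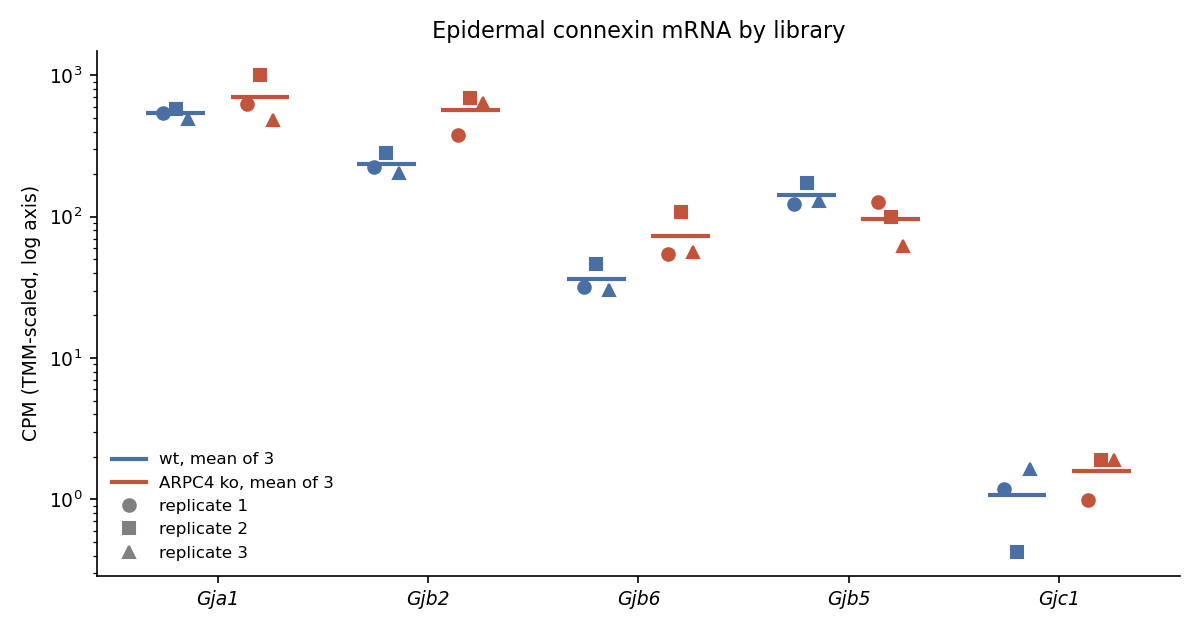
Level of the 5 connexin genes in each library, in TMM-scaled CPM on a log axis, with circles, squares and triangles for replicates 1 to 3 and a bar at the mean of each group of 3. For Gjb2 and Gjb6 every ko point stands above every wt point, while for Gja1, Gjb5 and Gjc1 the groups overlap.

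Gja1 (ENSMUSG00000050953, chromosome 10, 56377330 to 56402513, plus strand) encodes Cx43, an alpha connexin and the most widespread gap junction protein of the skin, made by keratinocytes and by fibroblasts, vascular cells and smooth muscle. Its wt levels were 544.4, 574.5 and 492.0 CPM and its ko levels 623.0, 1011 and 482.2 CPM. Ko replicate 3 lay below all 3 wt libraries and ko replicate 2 above all others, so the ko group spread on both sides of wt. The means were 537.0 ± 41.8 CPM in wt and 705.4 ± 273.8 CPM in ko (SD, n = 3), with a log2 fold change of 0.39 (SE 0.28, 95% interval -0.27 to 1.05; edgeR quasi-likelihood adjusted p = 0.633). The interval holds both 0 and the 1.02 estimated for Gjb6. Without ko replicate 2 the log2 fold change was 0.04, and within the dated libraries it was 0.52 (adjusted p = 0.370).

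Gjb5 (ENSMUSG00000042357, chromosome 4, 127354809 to 127358181, minus strand) encodes a beta connexin found mainly in stratified epithelia. It stood at 122.3, 172.1 and 129.4 CPM in wt, against 127.9, 99.52 and 61.63 CPM in ko. Ko replicates 2 and 3 lay below the wt range, and ko replicate 1 lay inside it. Mean levels were 141.2 ± 26.9 CPM in wt and 96.4 ± 33.3 CPM in ko (SD, n = 3), a log2 fold change of -0.55 (SE 0.28, 95% interval -1.21 to 0.11; adjusted p = 0.470, edgeR quasi-likelihood). Without ko replicate 3 it was -0.35, and within the dated libraries -0.40 (adjusted p = 0.446). No analysis that was run called Gjb5.

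Gjc1 (ENSMUSG00000034520, chromosome 11, 102799579 to 102819700, minus strand) encodes Cx45, a connexin best known from the conduction system of the heart, smooth muscle and neurons. Only 159 counts fell on it in all 6 libraries together, 27, 8 and 36 in wt and 20, 32 and 36 in ko. Its levels were 1.189, 0.4255 and 1.632 CPM in wt and 0.9941, 1.892 and 1.888 CPM in ko. The low point was wt replicate 2, and ko replicate 1 lay within the wt range. From 1.08 ± 0.61 to 1.59 ± 0.52 CPM (SD, n = 3) the log2 fold change was 0.52 (SE 0.49, 95% interval -0.65 to 1.69; edgeR quasi-likelihood adjusted p = 0.75). The interval holds both 0 and a 2-fold higher level in ko. The value moved to 0.16 without wt replicate 2, to 0.91 without wt replicate 3 and to 0.33 without ko replicate 3.

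**Figure D2:**
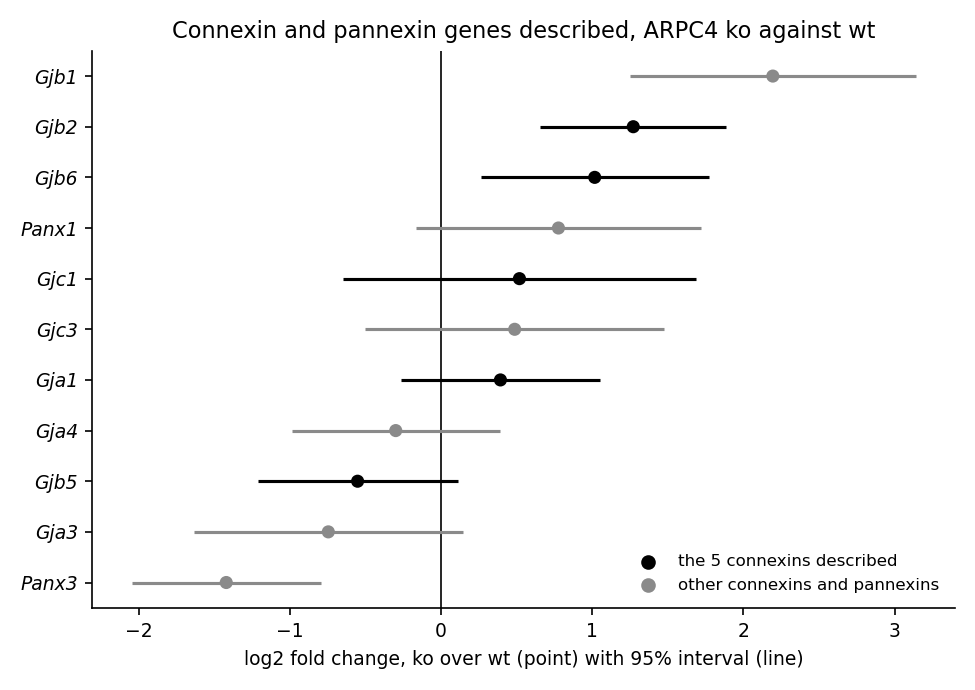
Log2 fold change of ko over wt (points) with its 95% interval (lines) for the members and for other tested connexin and pannexin genes, from the edgeR fit, in black for the 5 members. The intervals of Gjb1, Gjb2 and Gjb6 lie above 0 and that of Panx3 below 0, and those of the other genes shown cross 0.

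Levels of different genes were compared per length, as CPM per kilobase of the longest coding transcript. On this length Gja1 in wt was the highest of the 5, at 168.7 ± 13.1 CPM per kb, with all its libraries above those of Gjb2 (98.0 ± 16.8). Gjb2 and Gjb5 (82.1 ± 15.6 CPM per kb) overlapped in wt, Gjb6 followed at 17.1 ± 4.24 and Gjc1 at 0.468 ± 0.264 CPM per kb (SD, n = 3). The order differed in ko. Gjb2 at 236.8 ± 69.3 and Gja1 at 221.7 ± 86 CPM per kb overlapped at the top, and Gjb5 at 56.0 ± 19.3 overlapped with Gjb6 at 34.7 ± 14.7 CPM per kb, above Gjc1 at 0.688 ± 0.224 (SD, n = 3). The place of Gja1 turned with the length taken. Per kilobase of all annotated exonic bases Gja1 was at 52.4 ± 4.07 in wt, with all its libraries below those of Gjb2 (98.0 ± 16.8) and Gjb5 (82.1 ± 15.6). In ko it was then at 68.8 ± 26.7 (SD, n = 3), below every ko library of Gjb2 and overlapping with Gjb5.

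Per length the summed level of the 5 connexins was 351.2, 419.3 and 328.8 CPM per kb in wt and 454.2, 715.9 and 479.2 CPM per kb in ko, without overlap. The chromosome 14 pair Gjb2 and Gjb6 held 30.9, 33.06 and 29.91% of that sum in wt and 40.43, 47.43 and 60.74% in ko, and these groups did not overlap. Gjb2 alone accounted for 26.7 ± 1.13% in wt and 43.4 ± 10.6% in ko (SD, n = 3). The wt libraries agreed closely in this share and the ko libraries were spread widely, with replicate 1 nearest to wt.

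Gjb5 held 20.23, 23.84 and 22.86% in wt and 16.37, 8.078 and 7.473% in ko, again without overlap and with ko replicate 1 nearest to wt. Gja1 held 46.3 ± 2.91% in wt and 39.7 ± 7.03% in ko (SD, n = 3), with overlapping groups. Shares of 1 sum are tied to each other, so a higher share of the pair lowers the rest, and neither the sums nor the shares were tested. With the length of all annotated exonic bases in place of 1 transcript, Gja1 held only 21.45% in wt and 17.5% in ko, the pair 45.2% and 67.3%, and Gjb5 33.3% and 15.1%.

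**Figure D3:**
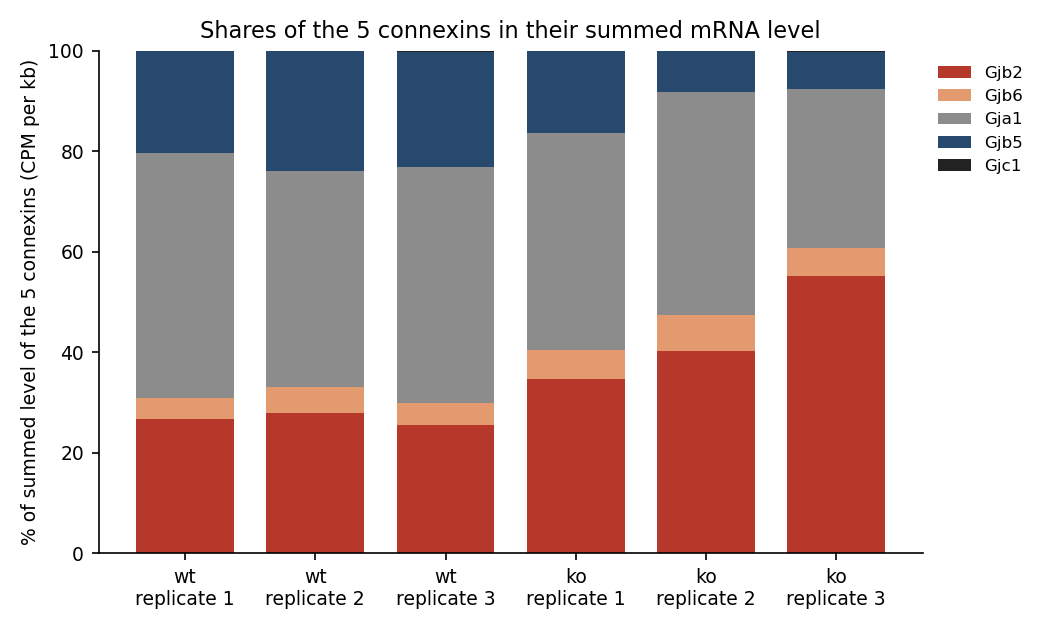
Shares of the 5 connexins in each library, as stacked percentages of their summed CPM per kb. The chromosome 14 pair (Gjb2 and Gjb6, bottom) spans 29.91 to 33.06% in wt and 40.43 to 60.74% in ko, and Gjb5 (blue) 20.23 to 23.84% and 7.473 to 16.37%.

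Ratios within a library do not depend on its scaling. The level of Gjb2 per length was a multiple of that of Gjb5, at 1.316, 1.166 and 1.117 in wt and 2.124, 4.978 and 7.383 in ko. Relative to Gja1 the level of Gjb2 was 0.5465, 0.646 and 0.5433 in wt and 0.8064, 0.9062 and 1.745 in ko. The size of this ratio depends on the length taken for Gja1. Per kilobase of all annotated exonic bases Gjb2 lay above Gja1 in wt too, at 98.0 and 52.4 on average. Both ratios were higher in each ko library than in any wt library. Gjb6 relative to Gjb5 behaved likewise, at 0.2117, 0.2202 and 0.1909 in wt against 0.3465, 0.8924 and 0.7439 in ko. The ratio of the chromosome 14 neighbours, Gjb2 over Gjb6, overlapped between the groups, at 5.298 to 6.217 in wt and 5.578 to 9.925 in ko. These ratios were formed with the levels known and were not tested.

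Among 9445 genes with a mean of at least 5 CPM, those whose pattern over the 6 libraries was most like a member were found by the root mean square difference of log2 CPM, each gene centred on its own mean. Nearest to Gjb2 were Ereg, a ligand of the EGF receptor (difference 0.145), Stfa1, a stefin that inhibits cysteine proteases (0.158), and Duox1, an oxidase that makes hydrogen peroxide (0.167). The median over all genes was 0.721. Ereg lay at 107.6, 131.0 and 100.7 CPM in wt, against 193.5, 259.4 and 290.2 CPM in ko. Gjb6, which also stood higher in every ko library, was 0.299 from Gjb2, closer than the other members. The nearest genes lie under the median by choice, and these differences were not tested.

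Nearest to Gjb6 were Fabp5, the epidermal fatty acid binding protein (0.138), Rnase2b, a secreted ribonuclease (0.152), and Slc39a8, a metal ion transporter (0.166), against a median of 0.647. Fabp5 held 671.5, 786.9 and 578.5 CPM in wt and 1193, 2047 and 1241 CPM in ko, with the same high second ko replicate as Gjb6. Stfa1 and Rnase2b belong to families of close copies, so their counts of unique alignments are uncertain. Gjb5 was most like Pdlim4, a PDZ and LIM domain protein (0.0804), Fam241b (0.0946) and Rab40b, a small GTPase of the Rab family (0.103), against a median of 0.488. Gja1 was most like Lysmd4 (0.0891), Cyp3a13, a cytochrome P450 (0.117), and Aadacl2 (0.117), against 0.406. Gjc1 was most like the lipoprotein receptor Vldlr (0.132), the nucleotide receptor P2ry1 (0.181) and the Hedgehog pathway factor Gli2 (0.183), against 0.698.

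Another 11 connexin genes were read beside the members. Of these, 8 had counts and 4 could be tested with edgeR. With edgeR 0 passed, and DESeq2 called 1, Gjb1. By the unadjusted p under 0.05, 1 was higher and 0 were lower, against 7.98% and 5.25% of all tested genes. On chromosome 4, where Gjb5 lies, Gja4 (127311421 to 127314039), an endothelial connexin, averaged 1.91 CPM in wt, against 1.57 CPM in ko (log2 fold change -0.30, adjusted p = 0.759). On chromosome 14 the lens connexin Gja3 (57034460 to 57058100), beside Gjb2, stood at 3.83, 4.627 and 1.814 CPM in wt, against 2.137, 2.011 and 1.941 CPM in ko (-0.74, SE 0.37, adjusted p = 0.468). Gja3 and Gjb2 are neighbours with estimates of opposite sign, and the difference between them was not tested. Gjc3, a connexin of glia, averaged 0.562 CPM in wt and 0.770 CPM in ko, with an adjusted p of 0.715. Leaving out each library in turn gave log2 fold changes of -0.46 (without wt replicate 2) to -0.16 (without wt replicate 3) for Gja4 and of -1.07 (without wt replicate 3) to -0.48 (without wt replicate 2) for Gja3. For Gjc3 the value of 0.49 moved to between 0.19 (without wt replicate 1) and 0.72 (without wt replicate 2). Too few counts for the test lay on Gja6 (22), Gjd3 (36), Gjd4 (2) and Gja5 (22), and none on Gja10, Gjd2 and Gje1. The counts of Gja5, an arterial connexin, were 1, 1 and 1 in wt and 9, 6 and 4 in ko, and its exons overlap Gpr89 on the other strand.

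Gjb1 (chromosome X, 101376378 to 101385629), a connexin of liver and of myelinating Schwann cells, had the smallest p of the connexins described. It stood at 0.9245, 1.276 and 0.6348 CPM in wt, against 3.728, 3.016 and 6.137 CPM in the 3 ko libraries, all of them higher. The log2 fold change was 2.19 (SE 0.40, 95% interval 1.25 to 3.14) with an edgeR adjusted p of 0.0917, and DESeq2 gave an adjusted p of 0.00021 in a range of 0.00021 to 0.388 over the analyses run. Among the libraries with high Xist, wt replicate 3 held the lowest Gjb1 level and ko replicate 3 the highest. Ko replicate 2, the only ko library with high Ddx3y, held the lowest level of ko. The part of sex in the level of this X-linked gene was not tested. Per length its ko level of 2.71 CPM per kb remained far under the 34.7 CPM per kb of Gjb6. Summed over 5 Schwann cell markers, the level was 28.78 to 42.84 CPM in wt and 49.97 to 61.68 CPM in ko, of which Mbp made up 28.6 and 44.7 CPM and Pmp22 2.27 and 6.96 CPM on average. With edgeR and with DESeq2 0 passed, while 3 of the 4 tested were higher at an unadjusted p under 0.05, against 7.98% of all tested genes. The groups overlapped for Pmp22 and for Sox10 (2.09 CPM in wt and 2.57 CPM in ko on average). S100b, with 10 counts, averaged 0.090 CPM in wt and 0.070 CPM in ko. With the title date as a covariate edgeR called both Gjb1 (adjusted p = 0.0285) and 1 of these markers, Mbp. Their part in the level of Gjb1 was not tested.

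Pannexins form channels that release ATP without joining cells. Panx1 stood at 11.8, 7.446 and 16.14 CPM in wt, against 15.41, 14.02 and 31.31 CPM in ko, with overlap (log2 fold change 0.78, SE 0.40, adjusted p = 0.476). Without ko replicate 3, its highest library, the log2 fold change of Panx1 was 0.28. Panx3 stood at 6.031, 6.914 and 8.252 CPM in wt, against 2.734, 1.892 and 3.252 CPM in ko, 2.69-fold lower on average and without overlap. Its log2 fold change was -1.42 (SE 0.26, 95% interval -2.05 to -0.79), the edgeR adjusted p was 0.0941, and over the analyses run the adjusted p ranged from 0.0002 with DESeq2 to 0.378. Panx2 had 9 counts.

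A list of 21 genes of connexin partners and turnover held the scaffold proteins that bind connexin tails, kinases that phosphorylate them, ubiquitin ligases that remove them and proteins of their transport. All 21 were tested, 0 passed with edgeR and 0 with DESeq2, 0 had an unadjusted p under 0.05 in either direction, and the median log2 fold change was 0.03, close to that of all genes. The 4 with the smallest p were the ubiquitin ligase Wwp1 (34.2 CPM in wt, 41.2 in ko, log2 fold change 0.27), the transport receptor Cnst (136.9 and 111.0 CPM, -0.30), Ubqln4 (64.6 and 72.6 CPM, 0.17) and the kinase Prkcd (141.3 and 123.6 CPM, -0.19), with edgeR adjusted p-values of 0.519 to 0.632. Ubqln4 and the cadherin Cdh1 (848.5 and 935.3 CPM, chosen after its values were seen) were the 2 of 21 without overlap, both with ko above wt. Of all tested genes 11.3% had ko above wt without overlap and 8.03% had ko below wt. Summed over the list, the level was 3971 to 4279 CPM in wt and 4194 to 4296 CPM in ko. The whole range of fold changes, from -0.30 for Cnst to 0.46 for Trim21 (chosen after its values were seen), was smaller than the mean difference of Gjb2 or Gjb6.

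Of 17 genes of epidermal calcium and ATP signalling, whose messengers pass through or are released by connexin channels, 15 were tested and 0 passed with edgeR, while DESeq2 called 1, Itpr1. At an unadjusted p under 0.05, 2 stood higher and 0 lower, against 7.98% and 5.25% of all tested genes. The median log2 fold change was 0.22. The inositol trisphosphate receptor Itpr1 averaged 2.10 ± 0.166 CPM in wt, against 4.33 ± 0.49 CPM in ko (SD, n = 3; log2 fold change 1.05, edgeR adjusted p = 0.108). The adenosine receptor Adora2b followed at 4.31 and 6.89 CPM (0.67, adjusted p = 0.307), then the phospholipase Plcd1 at 71.6 and 90.6 CPM (0.34, adjusted p = 0.419) and the ATP-gated channel P2rx7 at 5.2 and 7.99 CPM (0.61, adjusted p = 0.423). In these 4 of the 15 tested genes the lowest ko library exceeded the highest wt library, as in 11.3% of all tested genes. The 4 were named for their smallest p, a choice that favours groups without overlap.

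Gene lists of the keratinocyte layers and of other skin cells were read beside the connexins, since the members differ in the cells that make them. Of 6 genes of hyperproliferative epidermis edgeR called 4, all higher in ko, against 0.219% of all tested genes called. These were Krt16, Krt6b and, chosen after their values were seen, S100a8 and S100a9. Limma-voom called 0 of the 6, as did edgeR without each wt replicate in turn and without ko replicate 2. Krt16 stood at 127.8, 96.1 and 233.2 CPM in wt, against 1733, 4743 and 3537 CPM in ko. Krt6b held 6.339, 20.85 and 21.13 CPM in wt, against 763.8, 3006 and 1942 CPM in ko. For Krt17, which did not pass, the values were 1771, 1794 and 1263 CPM and 1832, 1921 and 3544 CPM. Ko replicate 1 was the lowest ko library of Krt16, Krt6b and Gjb2 alike, and replicate 2 the highest. The part of these genes in the level of Gjb2 and Gjb6 was not tested.

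Among 8 basal markers 0 passed with edgeR or DESeq2, 0 had an unadjusted p under 0.05 and all groups overlapped, with summed levels of 7783, 2108 and 10420 CPM in wt and 3353, 4658 and 11980 CPM in ko, led by Krt5, Krt14 and Krt15. Wt replicate 2, the lowest library of this sum, was also the lowest of Gjc1 and the highest of Gjb5. The 9 suprabasal markers measured, led by Krt1, Krt10 and Lor, also had 0 calls by either tool, 0 at an unadjusted p under 0.05, and sums of 89070 to 147900 CPM in wt and 91180 to 169900 CPM in ko, the highest in ko replicate 2, which was also the highest library of Gja1 and Gjb6. The sums of both layer lists varied widely within each group. In each group the undated library, replicate 3, had the highest basal sum and the lowest suprabasal sum. The part of the layers in the connexin levels was not tested.

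Dermal and vascular cells make Gja1, Gjc1, Gja4 and Gja5, and in each of their 3 marker lists the summed level was higher in every ko library than in any wt library. The 10 endothelial markers summed to 5.903 to 6.339 CPM in wt and 14.84 to 28.33 CPM in ko, with 0 calls by edgeR, 7 by DESeq2 and 9 of 9 tested genes higher at an unadjusted p under 0.05. Pecam1 stood at 1.76 and 5.99 CPM and Vwf at 1.89 and 4.35 CPM. The 8 smooth muscle and pericyte markers, with Cspg4 and Rgs5 the most abundant, summed to 9.041 to 23.08 CPM in wt and 29.42 to 36.25 CPM in ko, and 1 rose, Myh11, chosen after its values were seen (0.541 and 4.01 CPM, edgeR adjusted p = 0.0459). DESeq2 called 3 of them, 4 of 7 tested were higher at an unadjusted p under 0.05, and Cspg4 averaged 7.83 CPM in wt and 7.71 CPM in ko. The 8 fibroblast markers, led by Col3a1 and Col1a2, summed to 90.25 to 189.0 CPM in wt and 227.9 to 787.6 CPM in ko, with 0 calls by edgeR, 6 by DESeq2 and 7 higher at an unadjusted p under 0.05. The groups overlapped for Col1a1 and Col1a2, and Col1a2 stood at 30.79 CPM in ko replicate 3 and 37.72 CPM in wt replicate 3. Over all genes tested edgeR called 0.219% and DESeq2 4.21%, and with edgeR 7.98% were higher at an unadjusted p under 0.05. Of the connexins named for these cells, Gja4 was lower on average in ko, and Gja1, Gjc1 and Gja5 were higher. The groups overlapped for all but Gja5, which had only 22 counts in all and was not tested in the main analysis. In ko replicate 3, which had the lowest endothelial and fibroblast sums of ko, Gja1 was at its lowest, 482.2 CPM, while Gjb2 stood at 636.2 CPM. The part of these cells in the connexin levels was not tested.

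The remaining lists had 0 calls in the main edgeR analysis. DESeq2 called 1 of the macrophage markers, Mrc1, and 0 of the others. Mrc1 was also called by edgeR without the filter, with the replicate block, with the title date as a covariate and in the dated libraries alone, and the last also called the Merkel cell marker Isl1. Mrc1 was chosen after its values were seen. At an unadjusted p under 0.05, 1 macrophage and 3 melanocyte markers were higher, 2 Merkel cell markers lower, and 0 of the T cell, hair follicle and muscle markers differed. Of all tested genes 7.98% were higher and 5.25% lower by this measure. Sums were 249.9 to 594.7 CPM in wt and 317.5 to 687.5 CPM in ko for 8 macrophage and Langerhans cell markers (Cd74, H2-Aa), 37.16 to 50.26 and 30.63 to 57.0 CPM for 5 T cell markers (Thy1, Cd3g), and 69.6 to 88.66 and 96.09 to 136.5 CPM for 6 melanocyte markers (Dct, Pmel). They were 3.245 to 7.526 and 2.727 to 4.258 CPM for 6 Merkel cell markers (Krt18, Isl1), 2301 to 6829 and 2594 to 3814 CPM for 8 hair follicle markers (Krt71, Krt25), and 4.67 to 8.775 and 4.301 to 37.85 CPM for 6 skeletal muscle markers (Mylpf, Acta1). The muscle sum of 37.85 CPM belonged to ko replicate 2, the highest library of Gja1, Gjb2 and Gjb6. No list had a marker at 0 counts in all 6 libraries.

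**Figure D4:**
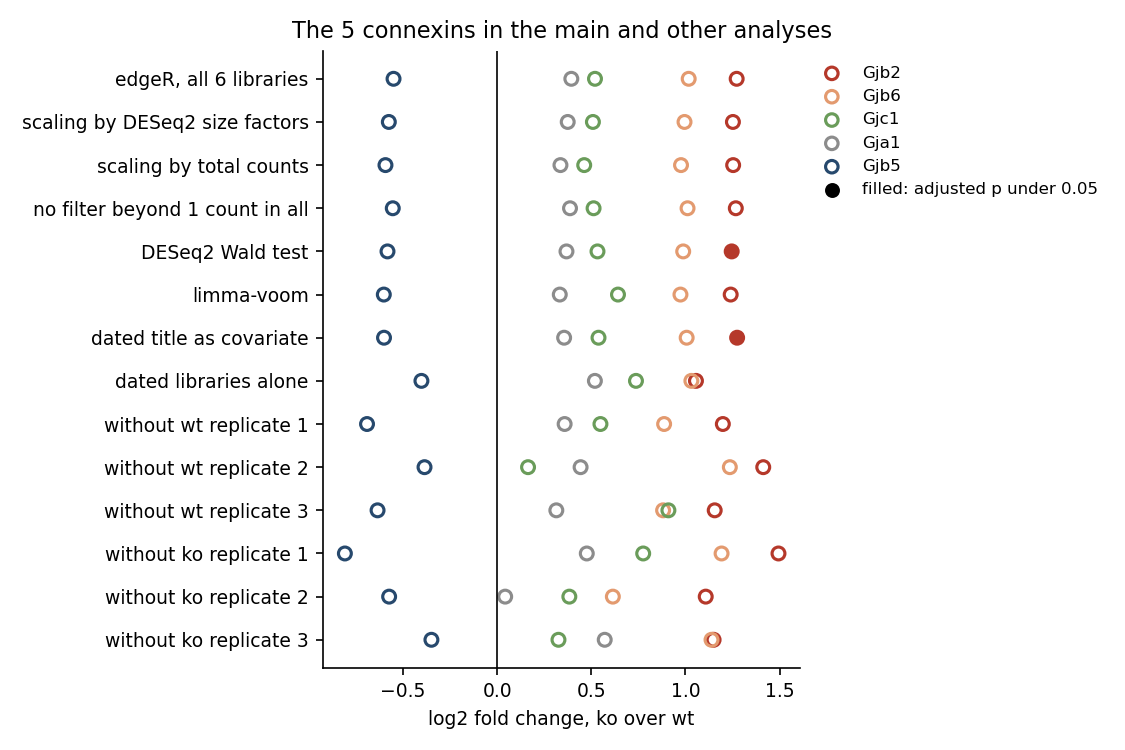
Log2 fold change of ko over wt for each of the 5 connexins in the main edgeR analysis, under other scalings, tools and covariates, in the dated libraries alone and without each library in turn. The replicate block, with which Gjb2 (edgeR adjusted p = 0.0374) and Gjb6 (edgeR adjusted p = 0.026) passed, is not drawn. Filled points mark an adjusted p under 0.05, reached here by Gjb2 with DESeq2 and with the title date as a covariate, and Gja1 comes nearest to 0, at 0.04, without ko replicate 2.

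In every analysis run, including those without each library in turn, Gjb2, Gjb6, Gja1 and Gjc1 were higher on average in ko and Gjb5 lower. The log2 fold change stayed between 1.06 and 1.49 for Gjb2 and between 0.61 and 1.24 for Gjb6. These ranges overlap, and the difference between the genes was not tested. The adjusted p of Gjb2 lay on either side of the threshold depending on the tool and covariate, and limma-voom called 0 of all genes.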

How the data were processed

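The authors deposited raw counts, 1 whole number for each Ensembl gene. Per the labels' protocols, stranded mRNA libraries were read from one end over 51 bp. TopHat2 2.0.12, Bowtie 1.1, HTSeq and the mm10 build appear in the submitters' processing notes. Tool settings, the strand option and the annotation used for counting were not given in the sources used here. Unassigned reads entered neither library sizes nor tests. Those with several alignments made up 32.4 to 40.9% of all reads listed, ambiguous reads 0.38 to 0.499% and reads outside genes 0.341 to 0.377%.

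Symbols came from the reference table of gene names (40254 of 41214 identifiers), coordinates and lengths from GENCODE M21 on GRCm38, and promoters from RefSeq on GRCm38.p6. Genes were kept by filterByExpr and scaled by TMM. They were fitted on the whole table with glmQLFit (robust) and tested with glmQLFTest in edgeR 4.0.16 (R 4.3.3), with Benjamini-Hochberg adjustment over 13704 genes at 0.05. Each SE was derived from the log2 fold change and the F statistic. DESeq2 1.42.0, limma-voom (limma 3.58.1), other scalings, no filter, the presence of a date in the title as a covariate, a replicate block, the dated libraries alone and leaving out each library were the alternatives, and exonic length was added after seeing the data. The code was checked on simulated data.

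The members and lists were chosen with earlier results of these data known. Named were the members, other connexins and pannexins, the 4 partners and 4 signalling genes of smallest p, the most abundant 3 genes of each keratinocyte list and 2 of each cell type list, and the 3 genes most like each member (log2 CPM with a prior count of 2). Flg and Trdc were not measured under their symbols, and some genes of the lists are not reported here. Replicate numbers 1, 2 and 3 stand for the marks I, II and Tryp in the titles. Nothing in the labels says that replicates were separate animals. Xist and Ddx3y showed both sexes within each group, so its libraries were not all from the same animal, but those of the same sex may be. The p-values set the group difference against the spread between these samples, which may be technical in part.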

Additional observations from a re-analysis of the deposited data

How the results depend on the processing

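The sign of the log2 fold change of all 5 members was the same under every alternative run. Gjb2 passed the threshold with DESeq2 (1.25), with the title date as a covariate (1.27) and with the replicate block (1.24, edgeR adjusted p = 0.0374), and Gjb6 with the replicate block (0.97, edgeR adjusted p = 0.026). The cause was not tested. No other member was called in any alternative. Same-numbered libraries deviated from their group means with correlations of -0.186, 0.469 and 0.67 for numbers 1, 2 and 3. Wt replicates 1 and 2 and ko replicate 1 correlated best with another number. The undated libraries, replicate 3 of wt and of ko, correlated best with each other. Deviations from a mean of 3 libraries are tied to each other, so these values cannot decide whether the numbers pair the samples. Leaving out each library gave log2 fold changes of 1.11 to 1.49 for Gjb2, 0.61 to 1.24 for Gjb6, 0.04 to 0.57 for Gja1, -0.81 to -0.35 for Gjb5 and 0.16 to 0.91 for Gjc1. The number of genes called over the whole table, 30, was 57 without the filter, 648 with DESeq2, 0 with limma-voom (1748 at an unadjusted p under 0.05), 354 with the replicate block, 709 with the title date as a covariate and 227 in the dated libraries alone. It ranged from 0 to 64 without each library in turn, being 0 without any 1 of the wt replicates or ko replicate 2 (1229 to 2350 at an unadjusted p under 0.05), 29 without ko replicate 1 and 64 without ko replicate 3. The connexin shares per length depend on the transcript length taken for Gja1, 3182 bases for its longest coding transcript and 10257 for all annotated exonic bases. Gjc1 had 8 to 36 counts per library and each other member at least 666, and the part of depth in the width of the Gjc1 interval was not tested.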
